A study of Mus musculus with 26 samples.

Results

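The 8 genes described here encode proteins that injured sensory neurons put to use when they regrow an axon: Sprr1a, Gap43, Basp1, Ecel1, Flrt3, Gpr151, Cd44 and Plaur. They were taken by name from the 55401 genes of the deposited count tables, all 8 were found by their Ensembl identifiers, and all 8 had enough reads to be tested in every comparison. RNA was sequenced from mouse dorsal root ganglia (DRG), which hold the cell bodies of sensory neurons with their glia, and from neurons cultured from such ganglia. The 26 libraries form 10 groups, a conditional Ahr knockout (cKO) and a control in each of 5 settings. Ahr encodes the aryl hydrocarbon receptor, a ligand-activated transcription factor, and the series title names this receptor as a brake on axon regrowth of DRG neurons.

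The cKO mice were homozygous for a floxed Ahr allele and carried Thy1-CRE, in the series text Thy1CRE-ERT2/EYFP, a Cre recombinase that is driven by a neuronal promoter and activated by tamoxifen. Controls carried no Cre and were of mixed genotype: fl/+, fl/+ and fl/fl in the naive and in the crush group, f/+ and fl/fl in the sham mice, and fl/fl for all cultured neurons. Naive and crush mice of both genotypes received tamoxifen at 100 mg/kg on 5 days from 28 weeks of age, and their L4 to L6 ganglia were taken 5 weeks later, between zeitgeber times 2 and 4. In the crush groups the sciatic nerve had been crushed 1 day before. In the sham mice the ganglia of the operated side and of the opposite side were taken 1 day after sham surgery, and semi-purified neurons were collected 24 hours after seeding. The labels state no tamoxifen for the sham mice or for the donors of the neurons. Each naive, crush and neuron group had 3 libraries and each sham group had 2, both sides of a sham mouse giving 1 library each. The naive mice and the donors of the neurons were labelled female, the sham mice male, and each crush group 2 females and 1 male.

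After a peripheral nerve injury a sensory neuron leaves its transmitting state and switches on a growth programme under transcription factors such as Atf3, Sox11, Jun and Stat3. The 8 genes are effectors of that programme. Gap43 and Basp1 encode acylated proteins of the inner growth cone membrane that act on the actin cytoskeleton, and Sprr1a encodes a small proline-rich protein of the skin's cornified envelope that axotomised neurons also make. Flrt3 is a leucine-rich repeat adhesion protein that binds Unc5 receptors and latrophilins, Gpr151 an orphan G protein-coupled receptor, Cd44 the receptor for hyaluronan, and Plaur the membrane-anchored receptor for urokinase, which activates plasminogen. Ecel1 is a membrane metallopeptidase known as damage-induced neuronal endopeptidase.

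Promoter sequence was searched for 6 of the 8 genes (Sprr1a, Basp1, Ecel1, Flrt3, Cd44 and Plaur). It was taken from the RefSeq annotation of GRCm38.p6, as 250 bases before and 50 bases after the annotated start. Gap43 and Gpr151 were not searched, so the motif counts say nothing about them. The AP-1 motif, to which Jun and Atf3 dimers bind, was searched as TGANTCA on both strands. It was found in 2 of the 6 promoters, Sprr1a and Plaur, and 7.81% of all 32851 promoters of the same length held it. The 250 bases before the start of both genes are given because they hold the motif, 5′ to 3′ on the gene's strand, with the AP-1 letters in capitals. After crush in control ganglia Sprr1a rose more, and Plaur (6.49-fold) less, than Flrt3 and Ecel1 (12.4-fold and 7.99-fold), whose windows held no match. Basp1 and Cd44, also without a match, rose less than Plaur. Whether the motif has a part in these changes was not tested.
Sprr1a, chr3:92485882-92486131, minus strand: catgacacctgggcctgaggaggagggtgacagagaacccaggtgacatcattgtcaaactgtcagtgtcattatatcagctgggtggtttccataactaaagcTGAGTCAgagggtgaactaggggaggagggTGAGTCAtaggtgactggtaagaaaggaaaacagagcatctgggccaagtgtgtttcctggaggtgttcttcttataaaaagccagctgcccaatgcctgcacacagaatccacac
Plaur, chr7:24462233-24462482, plus strand: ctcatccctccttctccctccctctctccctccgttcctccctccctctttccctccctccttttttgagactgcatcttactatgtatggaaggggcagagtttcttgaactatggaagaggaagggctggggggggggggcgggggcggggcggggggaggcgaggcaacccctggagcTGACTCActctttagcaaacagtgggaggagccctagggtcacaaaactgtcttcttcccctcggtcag
In Sprr1a the motif began at positions -146 and -116 relative to the start, and in Plaur at -69. The cyclic AMP response element TGACGTCA was in 1.79% of all promoters, the aryl hydrocarbon receptor core GCGTG in 32.4% and the STAT motif TTCNNNGAA in 8.30%, and none of these letters was in any of the 6 windows. TGACGTCA does not hold TGANTCA, so those searches did not count the same letters, and a match describes letters, not binding.

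Library totals ran from 20169388 to 23540375 counts in the naive and crush ganglia, from 39306414 to 58751270 in the sham ganglia and from 25299938 to 88180611 in the neurons, so low genes were counted with less sampling error in the sham and neuron libraries. Ahr counts did not separate the genotypes: the log2 difference of cKO from control lay between -0.05 and 0.17 in the 5 settings, the groups overlapped in each, and the lowest adjusted p was 0.754 (edgeR quasi-likelihood test). Ahr was counted over the whole gene, and in ganglia over all cells, so the ganglion counts do not check the deletion in neurons. In the semi-purified neurons Ahr averaged 50.8 CPM in control and 49.3 CPM in cKO libraries, also counted over the whole gene. The deletion of the floxed part was not tested. Thy1, whose promoter drives the Cre, was higher in every cKO library than in the control libraries of the same setting, and the difference passed the threshold in naive ganglia (log2 fold change 0.86, adjusted p = 0.0019) and in crushed ones (0.79, adjusted p = 0.0052). These calls depended on the fit: in naive ganglia no gene, Thy1 included, was called with only the 2 compared groups, and in crushed ganglia none was with transcript sex as a covariate, without the 2 libraries described next or without crush cKO replicate 3. In 2 of the 26 libraries, crush control replicate 3 and crush cKO replicate 2, the sex read from the transcripts was not the labelled one, so crush results were also computed without them. All 10 neuronal markers were detected in every group, and their summed level in culture was 0.546 (control) and 0.584 (cKO) times that in naive ganglia. By the labels every naive, crush and neuron library is 1 mouse, and the sham libraries are the 2 sides of 4 mice.

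Levels are given as CPM, a gene's share of a library's counts in the usual per-library unit, scaled over all 26 libraries together, and fold changes are log2 values with their standard error (SE) from edgeR's quasi-likelihood test; a gene was called at an adjusted p under 0.05, adjusted over all genes tested. Before injury the 8 genes were far apart in level. Per kilobase of exon, Gap43 was highest in naive control ganglia at 136.6 CPM per kb, followed by Basp1 at 85.1 and Cd44 at 37.0. The counts may include intron reads, which was not tested. Division by exon length would then raise genes with little exon, such as Gap43, whose exons are 1.65% of its span. The other 5 genes were much lower, from Plaur at 2.70 and Flrt3 at 2.26 down to Ecel1 at 0.210 CPM per kb. Divided by the gene span including introns, Basp1 (3.39), Cd44 (2.77) and Gap43 (2.26 CPM per kb) remained the highest 3, in another order, followed by Gpr151 (1.15) and Flrt3 (0.535 CPM per kb).

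**Figure D1:**
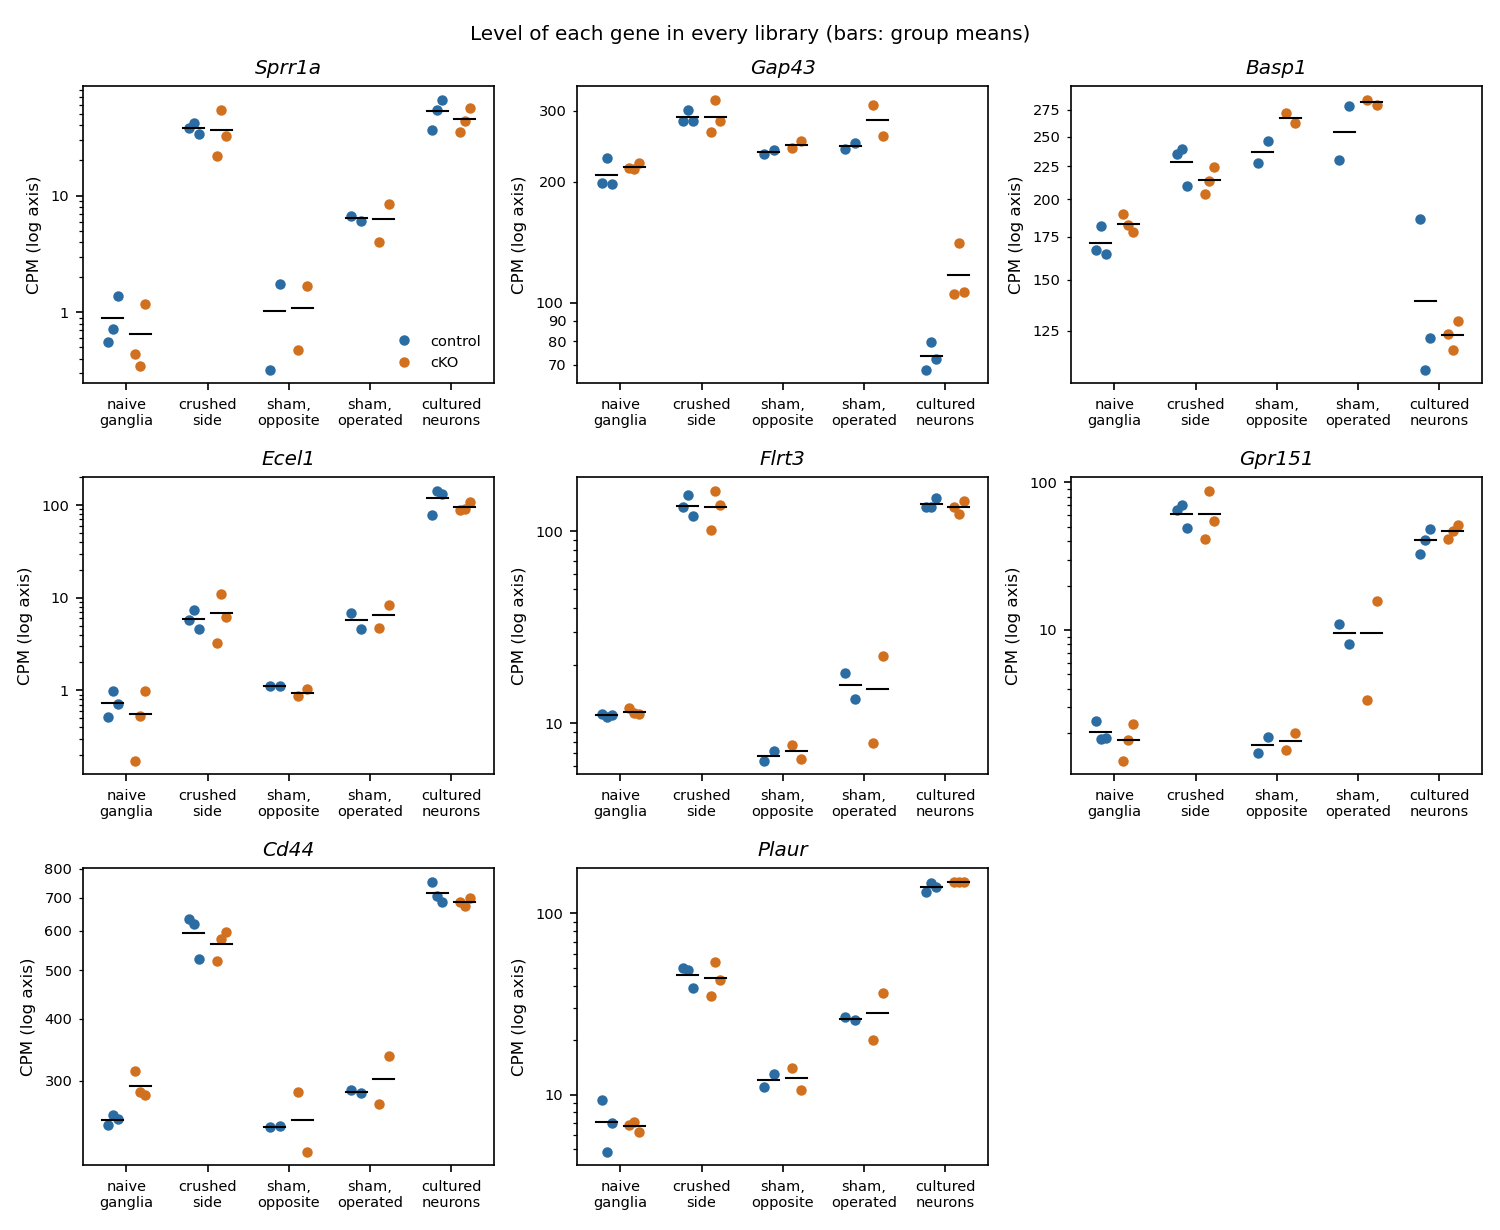
Level of each of the 8 genes in every library, in CPM on a log axis, for the 5 settings, with control libraries in blue, cKO libraries in orange and black bars for group means. Sprr1a, Ecel1, Flrt3, Gpr151 and Plaur sit far higher after crush and in culture than in naive ganglia, while the group means of Gap43 and Basp1 are lowest in culture.

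The crush comparison asks what the ganglion expresses 1 day after its axons in the sciatic nerve were crushed. In both genotypes 8 of the 8 genes rose, whereas 12.9% of all 21261 genes tested were called higher in control and 10.7% in cKO ganglia (21.6% and 18.6% were called in either direction). The median log2 fold change of the 8 genes was 2.85 in control and 3.12 in cKO ganglia, against -0.02 and -0.0046 over all genes tested. Without the 2 libraries against their labelled sex, 8 genes were called in control and 7 in cKO ganglia. With the sex read from the transcripts as a covariate 8 were called in control and 6 in cKO ganglia, Gap43 and Basp1 losing the call. In whole ganglia, more RNA per cell and a larger share of the cells that make it cannot be told apart.

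Among the growth cone and cytoskeletal proteins, Sprr1a (ENSMUSG00000050359.7, chr3:92483952-92485895 in GRCm38, minus strand) changed by far the most. Its level was 0.558, 0.724 and 1.39 CPM in naive control ganglia and 37.7, 41.9 and 33.7 CPM after crush. In cKO ganglia it was 0.436, 0.349 and 1.18 CPM when naive and 22.0, 54.6 and 32.3 CPM after crush, so the crushed cKO libraries spread over more than the whole range of the crushed controls. The log2 fold change was 5.39 ± 0.41 in control (adjusted p = 5.27e-06, 42.5-fold) and 5.75 ± 0.43 in cKO ganglia (adjusted p = 5.22e-06). The cKO value rested in part on naive cKO replicate 3, the highest of its group, and was 6.48 without it. Over all alternatives it ran from 5.03 to 6.48. Sprr1a ranked 19 from the top among 21261 genes by fold change in control ganglia.

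Gap43 (ENSMUSG00000047261.9, chr16:42248442-42340651, minus strand), with the highest starting level per kilobase of exon, rose by a much smaller factor. It was at 198, 228 and 198 CPM in naive and 283, 302 and 284 CPM in crushed control ganglia, and at 216, 215 and 222 CPM in naive and 266, 320.4 and 283 CPM in crushed cKO ganglia. The log2 fold change was 0.48 ± 0.08 in control (adjusted p = 0.000853) and 0.40 ± 0.08 in cKO ganglia (adjusted p = 0.00309); the gain was 1.39-fold and 1.33-fold. With the sex read from the transcripts as a covariate the cKO value was 0.28 and was no longer called (adjusted p = 0.123).

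Basp1 (ENSMUSG00000045763.8, chr15:25363277-25413764, minus strand), which acts beside Gap43 in the growth cone, had the smallest called change. It went from 167, 181 and 165 CPM to 235, 239 and 209.8 CPM in control ganglia and from 189.7, 182 and 178 CPM to 204, 213 and 224 CPM in cKO ganglia. The log2 fold change was 0.42 ± 0.06 (adjusted p = 0.000729) in control and 0.21 ± 0.06 (adjusted p = 0.0406) in cKO ganglia. The cKO call was just past the threshold: it was lost without any 1 of naive cKO replicates 1, 2 and 3 (adjusted p 0.0667, 0.118 and 0.163) or of crush cKO replicates 2 and 3 (0.103 and 0.171). It was also lost without the 2 libraries against their labelled sex (0.0951), with the sex read from the transcripts as a covariate (log2 fold change 0.14, adjusted p = 0.408), without the filter on low counts (0.0808), in the fit of all 26 libraries (0.302) and with the replicate block (0.0537). These are 10 alternatives in all, while the control call held in every alternative run.

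Of the surface proteins, the adhesion protein Flrt3 (ENSMUSG00000051379.12) rose in both genotypes. Naive control libraries held 11.1, 10.8 and 11.05 CPM and crushed ones 134, 154 and 119.6 CPM, a log2 fold change of 3.63 ± 0.16 (adjusted p = 1.13e-07, 12.4-fold). In cKO ganglia 11.98, 11.3 and 11.1 CPM became 102, 163 and 137 CPM, a log2 fold change of 3.53 ± 0.16 (adjusted p = 1.25e-07). Flrt3 had the smallest adjusted p of the 8 genes in both genotypes.

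Flrt3 lies inside the span of another gene, Macrod2, which runs on the opposite strand over chr2:140395309-142392966 (GRCm38) and touches the exons of Flrt3 at chr2:140650914-140671469. Macrod2 counts moved with those of Flrt3: less the Flrt3 counts they were 1638 to 2079 per library in naive and crushed ganglia alike. Whether the reads of this stretch were counted for both genes is not stated in the sources used here and was not tested, and Flrt3 may hold reads of Macrod2. Spread evenly over the Macrod2 span, the remaining Macrod2 counts would amount to 6.81% to 8.29% of the Flrt3 counts in naive libraries (254 to 279 counts) and 0.514% to 0.849% in crushed ones (2367 to 3446 counts). An even spread is an assumption, and the part of shared reads in the Flrt3 values was not tested.

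**Figure D2:**
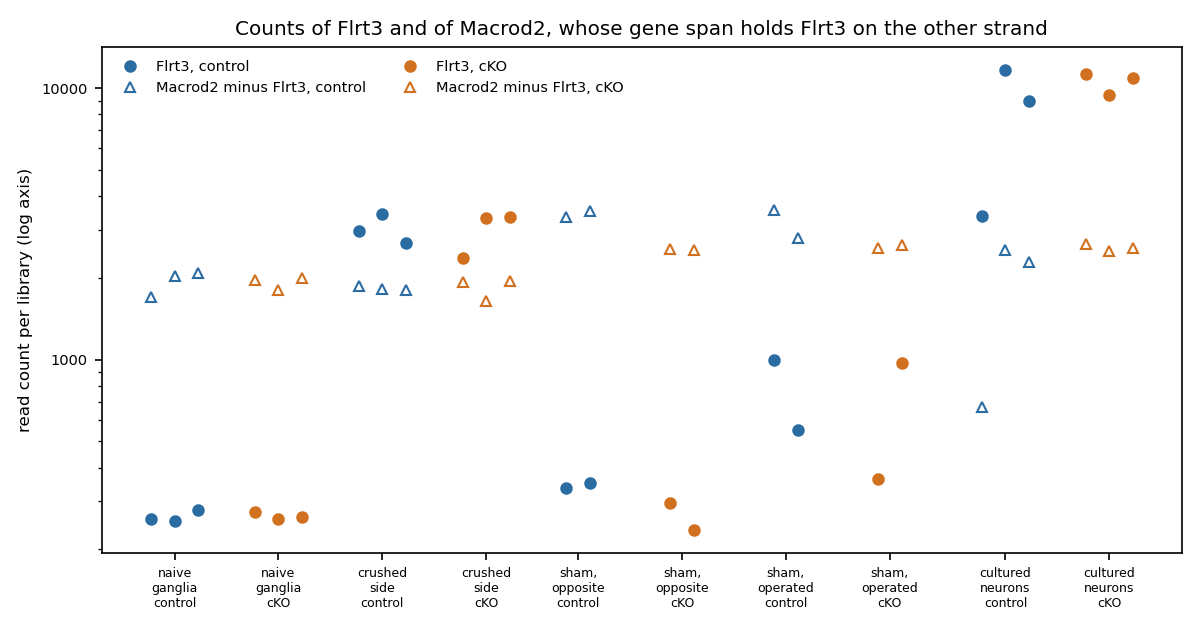
Read counts per library (log axis) of Flrt3 as filled circles and of Macrod2 minus Flrt3 as open triangles, by group, with control in blue and cKO in orange. In naive ganglia Flrt3 stays between 254 and 279 counts, below Macrod2, and after crush it reaches 2367 to 3446 counts while the rest of Macrod2 stays between 1638 and 2079.

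The receptor Gpr151 (ENSMUSG00000042816.4) followed Sprr1a in the size of its change. Its level was 2.40, 1.83 and 1.86 CPM in naive and 64.5, 70.4 and 49.4 CPM in crushed control ganglia (log2 fold change 4.92 ± 0.30, adjusted p = 1.2e-06, 30.2-fold). The cKO libraries held 1.31, 1.79 and 2.33 CPM and, after crush, 41.3, 88.0 and 54.8 CPM (5.06 ± 0.31, adjusted p = 1.42e-06). As for Sprr1a, crush cKO replicate 2 was the highest of the 6 crushed libraries and crush cKO replicate 1 the lowest.

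Plaur, the urokinase receptor (ENSMUSG00000046223.10, chr7:24462484-24475968, plus strand), rose from 9.35, 4.85 and 6.97 CPM to 49.9, 48.6 and 39.0 CPM in control ganglia (log2 fold change 2.70 ± 0.20, adjusted p = 4.85e-06). In cKO ganglia it rose from 6.80, 7.07 and 6.22 CPM to 34.9, 53.9 and 43.2 CPM (2.70 ± 0.20, adjusted p = 5.43e-06). The gain was 6.49-fold and 6.57-fold.

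Cd44, the hyaluronan receptor (ENSMUSG00000005087.17, chr2:102811141-102901665, minus strand), rose by 2.37-fold in control and 1.92-fold in cKO ganglia. Control ganglia held 245, 256 and 251.1 CPM when naive and 635, 619 and 528 CPM after crush (log2 fold change 1.25 ± 0.08, adjusted p = 1.31e-06). In cKO ganglia these levels were 314, 285 and 282 CPM and 521, 578 and 596 CPM (0.93 ± 0.08, adjusted p = 1.19e-05). It ranked 350 from the top by fold change in control ganglia.

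Ecel1, the endopeptidase (ENSMUSG00000026247.13, chr1:87147655-87156521, minus strand), rose from 0.515, 0.979 and 0.713 CPM to 5.72, 7.28 and 4.64 CPM in control ganglia (log2 fold change 2.99 ± 0.48, adjusted p = 0.000991) and from 0.174, 0.524 and 0.973 CPM to 3.28, 10.8 and 6.24 CPM in cKO ganglia (3.56 ± 0.50, adjusted p = 0.000462). Over the alternatives the cKO value ran from 2.52 to 4.23, the latter without naive cKO replicate 3, again the highest of its group.

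Some marker sums of other cells moved with crush. The sum of 6 satellite glia markers was 719 to 772 CPM in naive and 887 to 938 CPM in crushed control ganglia, and 689.8 to 889 and 911 to 998 CPM in cKO ganglia, without overlap, with Glul called higher in both genotypes, Kcnj10 higher and Fabp7 lower in control. Most of this rise was Glul. In control ganglia its mean went from 356 to 531 CPM and that of the sum from 745 to 918 CPM. In cKO ganglia Glul went from 371 to 523 CPM and the sum from 783 to 952 CPM. In control ganglia 2 of the 6 markers had a positive fold change, with a list median of -0.03. The sum of 6 neutrophil markers in cKO ganglia was 179 to 350.5 CPM when naive and 53.8 to 123 CPM after crush, though none of the 6 was called. Of 10 neuronal markers 1 fell in control and 2 in cKO ganglia, and none rose. Other markers called were Cd3e (T cells) and Cldn5 (endothelium), both lower in control ganglia, and the haemoglobin genes Hba-a1 and Hba-a2, lower in cKO ganglia. Their part in the change of the 8 genes was not tested.

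**Figure D3:**
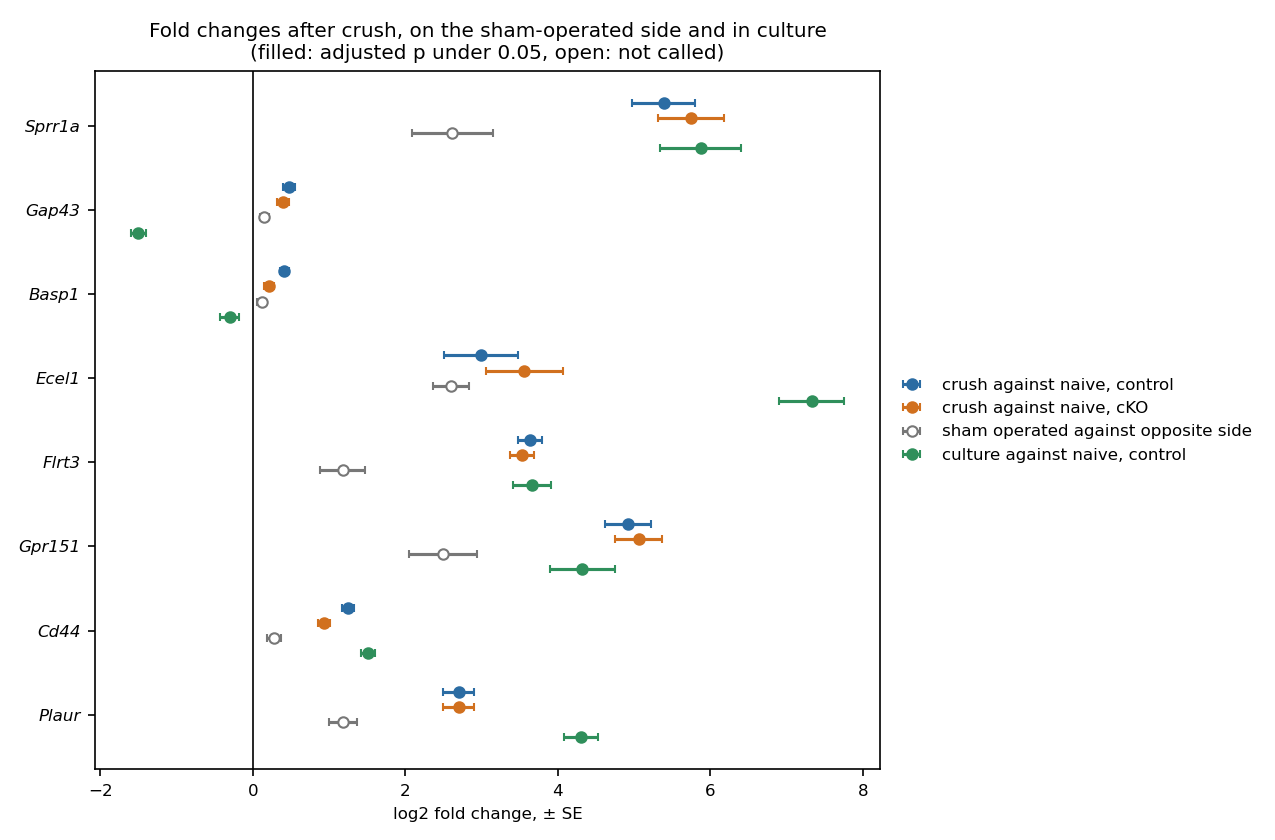
Log2 fold changes ± SE of the 8 genes after crush in control (blue) and cKO ganglia (orange), between the sides of sham mice (grey) and in culture against naive control ganglia (green). Filled points passed an adjusted p of 0.05; after crush all 8 did in both genotypes, and no grey point did.

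The lists of genes that work beside the members were counted in the same test. Of 20 other growth cone and cytoskeleton genes 11 rose and 1 fell in control ganglia, and 7 rose and 2 fell in cKO ganglia, with list medians of 0.25 and 0.16; of all genes tested, 12.9% were called higher in control and 10.7% in cKO ganglia. Tnfrsf12a, the receptor for the cytokine TWEAK, rose by 2.28 ± 0.15 and 2.40 ± 0.15 (log2, control and cKO), the stathmin Stmn4 by 2.10 and 2.11, and the tubulin Tubb6 by 1.31 and 1.33. The neurite outgrowth protein Nrn1 fell in both (-0.38 and -0.46), and Dcx, a microtubule protein of immature neurons, in cKO ganglia (-0.72). Of 12 partners of Flrt3 in adhesion and guidance, 2 rose in each genotype: the small GTPase Rnd1 by 1.64 and 1.81, and the netrin receptor Unc5d by 0.72 and 0.63. In the same list 4 genes fell in control and 3 in cKO ganglia, where 8.73% and 7.89% of all genes were called lower, Flrt1 (a paralogue of Flrt3, -0.71 and -0.87) and Unc5b (-0.47 and -0.58) in both, so the partner list had a median of -0.20 in each genotype. The share of this list called higher, 2 of 12, was near that of all genes.

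Of 11 genes that act with Cd44, 3 rose in each genotype and none fell, among them Ezr (0.62 and 0.67) and Msn (0.30 and 0.20), which tie Cd44 to actin. Of 9 tested genes of plasminogen activation, 1 rose in control and 2 in cKO ganglia and none fell, and 1 of 9 is near the 12.9% of all genes called higher in control ganglia. The integrin subunit Itgav rose by 0.41 and 0.45, and Plat, the tissue activator of plasminogen, was called only in the cKO comparison (0.60), a difference between genotypes that was not called. Of 19 other injury genes tested, 18 rose in each genotype, with Atf3 at 5.64 ± 0.19 and 5.596 ± 0.19; these lists were chosen with injury results in view.

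The sham libraries ask what the operation itself does, since both sides of the same mice were sequenced. The operated side had the higher level of 7 of the 8 genes in each of the 4 mice, all but Cd44, where 7.36% of the 22160 genes tested were higher in all 4. EdgeR's test over the 8 libraries did not pair the sides by mouse. No member was called in it, and 1 gene (0.00451%) was. At an unadjusted p under 0.05 the test counted 7 of the 8 members, all but Basp1, and 1675 genes in all, and DESeq2 called 4 members, Sprr1a, Ecel1, Gpr151 and Plaur, among 200 of 22160 genes (0.903%). The median log2 difference of the 8 genes was 1.18, against 0.01 over all genes tested.

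Ecel1 had the lowest adjusted p of the 8 genes. The 4 opposite-side libraries held 1.12 and 1.0999 CPM (control) and 0.866 and 1.02 CPM (cKO), and the operated side of the same mice 6.79 and 4.62 CPM and 4.66 and 8.42 CPM. The ratio of operated to opposite side was 6.05 and 4.203 in the controls and 5.38 and 8.22 in the cKO mice. The log2 difference was 2.60 ± 0.23 with an adjusted p of 0.0576, just outside the threshold, and with the mouse as a block Ecel1 was called (adjusted p = 0.0339). The operated levels lay within the range of the crushed ganglia, which was 3.28 to 10.8 CPM, in another deposited table.

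Sprr1a, Gpr151, Plaur and Flrt3 differed more from mouse to mouse. Sprr1a stood at 0.324 and 1.73 CPM in controls and 0.473 and 1.69 CPM in cKO mice on the opposite side, and at 6.72 and 6.06 CPM in controls and 4.04 and 8.51 CPM in cKO mice on the operated side, ratios of 3.50 to 20.8 (log2 difference 2.62 ± 0.54, adjusted p = 0.287). Gpr151 stood at 1.47 and 1.87 CPM in controls and 1.55 and 1.99 CPM in cKO mice on the opposite side, and at 11.1 and 8.08 CPM and 3.34 and 15.6 CPM, in that order, on the operated side (2.50 ± 0.45, adjusted p = 0.238). In both genes cKO mouse 2 had the highest operated level and cKO mouse 1 the lowest.

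Plaur was at 11.02 and 13.0 CPM in controls and 14.1 and 10.6 CPM in cKO mice on the opposite side, and at 26.8 and 25.7 CPM and 20.1 and 36.4 CPM on the operated side (1.19 ± 0.19, adjusted p = 0.181). Flrt3 was at 6.39 and 7.17 CPM in controls and 7.74 and 6.53 CPM in cKO mice on the opposite side, and at 18.3 and 13.4 CPM and 7.88 and 22.3 CPM on the operated side (1.18 ± 0.30, adjusted p = 0.416). In cKO mouse 1 Flrt3 hardly differed between sides (ratio 1.02), whereas the other 3 mice had ratios of 1.86 to 3.42. The even spread of Macrod2 counts amounts to 9.02% to 11.1% of the Flrt3 counts on the opposite side and 2.81% to 7.40% on the operated side.

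The remaining genes differed little. Gap43 had ratios of 1.03 to 1.28, Basp1 of 1.01 to 1.14 and Cd44 of 0.943 to 1.56, with Cd44 lower on the operated side in cKO mouse 1.

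The operated side of cKO mouse 1 stood apart in the members and was not alone in differing. Without that library 4 members were called (Ecel1, Flrt3, Gpr151 and Plaur, adjusted p 0.00247 to 0.0101) among 85 genes, and without operated cKO replicate 2 only Ecel1 (adjusted p = 0.0241) among 9 genes. Each of these fits left a single library in the operated cKO group. The fit without both sides of cKO mouse 1 left a single library in each sham cKO group, and its calls are not given. The summed level of 5 skeletal muscle markers was 1872 CPM in the operated side of cKO mouse 2, 3.19 to 19.2 CPM in the other 3 operated libraries and 23.8 to 356 CPM on the opposite side. The sum of 8 macrophage markers was 428 and 275 CPM in the operated cKO libraries and 261 and 214 CPM in the operated control libraries. That of 6 neutrophil markers was 582 CPM in the operated side of cKO mouse 1 and 147 to 323 CPM in the other sham libraries. The part of these cells in the values was not tested.

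**Figure D4:**
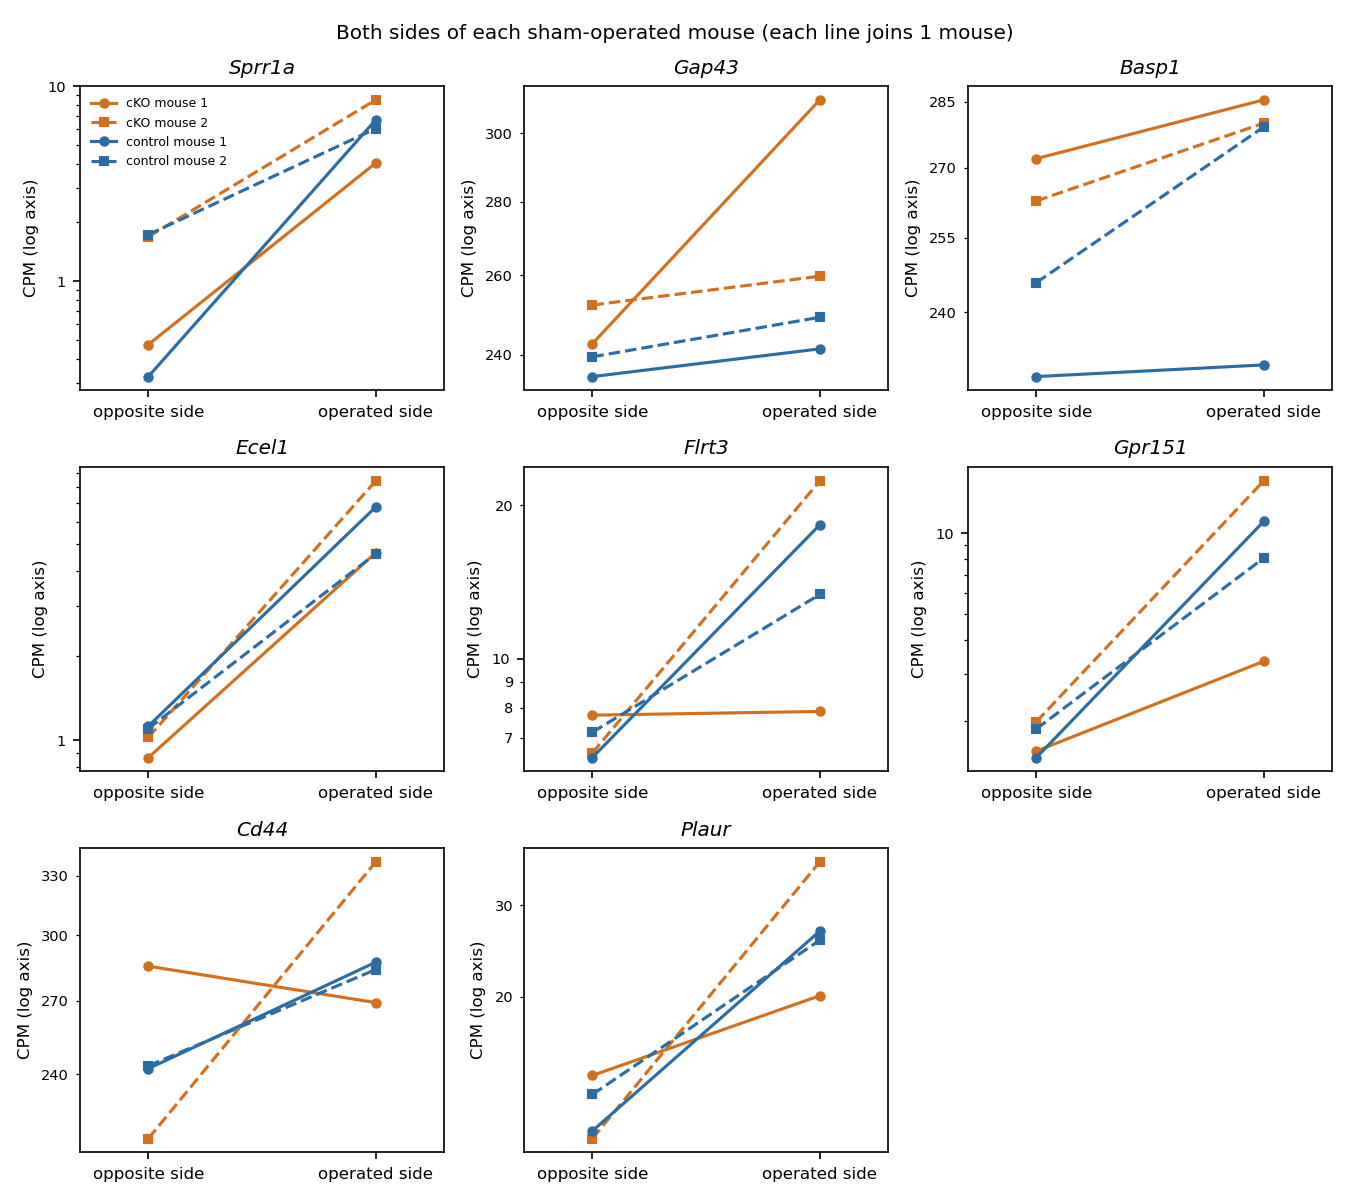
Level of each of the 8 genes on both sides of the 4 sham-operated mice, in CPM on a log axis, each line joining the sides of 1 mouse (control blue, cKO orange, mouse 1 solid, mouse 2 dashed). Ecel1 is higher on the operated side in all 4 mice, at 4.62 to 8.42 CPM against 0.866 to 1.12 CPM, while the lines of Gap43, Basp1 and Cd44 are nearly flat or mixed.

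The crush effect was then set against the sham side effect, each taken within its own deposited table and averaged over the genotypes. In this test 5 of the 8 genes had a larger crush effect and none a smaller one, with 7.83% of 24101 genes called and 5.92% called larger. They were Sprr1a (log2 difference 2.98 ± 0.62, adjusted p = 0.00437), Flrt3 (2.44 ± 0.27, adjusted p = 1.38e-05), Gpr151 (2.53 ± 0.48, adjusted p = 0.00215), Plaur (1.55 ± 0.23, adjusted p = 0.000199) and Cd44 (0.84 ± 0.10, adjusted p = 3.21e-05). These are the urokinase receptor, the adhesion and hyaluronan receptors, the orphan receptor and the small proline-rich protein. Ecel1 was not among them: its difference was 0.71 ± 0.53 with a 95% interval of -0.33 to 1.75 (adjusted p = 0.495), which holds 0 as well as the differences of Cd44 and Plaur. Gap43 (0.32 ± 0.11, adjusted p = 0.0801) and Basp1 (0.23 ± 0.14, adjusted p = 0.389) were not called either.

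The Sprr1a call rested on the opposite-side libraries: it was lost without cKO replicate 2 (log2 difference 2.40, adjusted p = 0.0797) or control replicate 2 (2.16, adjusted p = 0.103) of that side. Without operated cKO replicate 1, Gap43 was called (0.39, adjusted p = 0.0434), and without operated cKO replicate 2 the Gpr151 difference was 3.28. Crush and sham mice differed in labelled sex and in the tamoxifen stated for them, which cannot be told apart from the surgery here. Of the neighbouring lists, 16 of 19 other injury genes and 7 of 20 growth cone genes had a larger crush effect and none of either a smaller one. Of 12 partners of Flrt3, 1 had a larger (Rnd1) and 2 a smaller crush effect (Unc5b and Flrt1; list median -0.12), of 11 partners of Cd44 2 a larger one (Ezr and Spp1), and of 10 plasminogen genes none was called. Gal, an injury-induced neuropeptide, was the only listed gene called between the sham sides (1.29 ± 0.06, adjusted p = 0.000659).

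The culture comparison sets neurons 24 hours after seeding, whose axons were cut when the ganglia were taken apart, beside whole ganglia. All 8 genes were called against naive ganglia in each genotype, 6 higher and 2 lower. A call by itself says little here: 81.4% (control) and 80.1% (cKO) of 24101 genes were called, 40% and 40.5% higher. Against the opposite side of sham mice, which shares the neurons' deposited table, the same 6 genes were higher and the same 2 lower, where 70.3% and 68.3% of genes were called and 34.1% and 31.9% were higher. Against naive ganglia the deposited table, and against sham ganglia the labelled sex, cannot be told apart from culture.

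Ecel1 had the widest range of the 8 genes. It reached 78.7, 144 and 132 CPM in control and 88.1, 90.4 and 109 CPM in cKO neurons, a log2 difference of 7.33 ± 0.43 and 7.41 ± 0.44 from naive ganglia (161-fold and 172-fold). The naive level behind these folds is low. The cKO value ran from 6.99 to 8.09 over the alternatives, the latter without naive cKO replicate 3. It was also more than 10 times its level after crush, which averaged 5.88 ± 1.33 CPM in control ganglia (SD, n = 3). Plaur reached 131, 147 and 141 CPM in control and 148, 150.2 and 149 CPM in cKO neurons (19.8-fold and 22.3-fold the naive mean), above every crush library. For these 2 genes culture lay clearly beyond crush.

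Sprr1a, Flrt3 and Gpr151 stood in culture near their levels after crush. Sprr1a was at 36.8, 54.7 and 66.6 CPM in control and 34.8, 43.9 and 56.6 CPM in cKO neurons (log2 difference from naive 5.87 ± 0.53 and 6.08 ± 0.55). Its cKO difference ran from 5.77 to 6.83 over the alternatives, the latter without naive cKO replicate 3. Flrt3 was at 134, 133 and 149 CPM in control and 134, 123 and 144 CPM in cKO neurons (3.66 ± 0.25 and 3.55 ± 0.25), overlapping the crushed ganglia. Gpr151 was at 32.7, 40.6 and 48.1 CPM in control and 41.6, 47.1 and 51.5 CPM in cKO neurons (4.32 ± 0.43 and 4.69 ± 0.43), with group means below those after crush but overlapping libraries in cKO. Cd44 was at 754, 706 and 687 CPM in control and 686, 674 and 699.8 CPM in cKO neurons (1.51 ± 0.09 and 1.23 ± 0.09), above all crushed libraries.

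Gap43 and Basp1 went the other way. Gap43 fell from a naive mean of 208 ± 17.7 CPM in control ganglia to 68.1, 79.8 and 72.4 CPM in control neurons, and from 218 ± 3.89 CPM in cKO ganglia to 105, 140.4 and 106 CPM in cKO neurons (SD, n = 3). The log2 differences were -1.5003 ± 0.10 and -0.90 ± 0.10 against naive ganglia and -1.69 ± 0.11 and -1.08 ± 0.11 against opposite-side sham ganglia. Basp1 was at 187, 109 and 122 CPM in control neurons, where replicate 1 lay above the naive range of its genotype, and at 123, 117 and 129 CPM in cKO neurons. Its difference was -0.30 ± 0.13 in control (adjusted p = 0.0336) and -0.57 ± 0.13 in cKO (adjusted p = 0.000342). The control call was lost without naive control replicate 1 (adjusted p = 0.0568) or 2 (0.101) or neuron control replicate 2 (0.271) or 3 (0.171), and without neuron control replicate 1 the difference was -0.55.

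The make-up of the cultures differed from that of ganglia. The summed neuronal markers were 0.546 and 0.584 of the naive sum, as given above for control and cKO, and 7 of the 10 were called lower, Avil, Uchl1 and Prph being called higher. Against opposite-side sham ganglia all 10 were called lower in both genotypes, these 3 included. The sum of 6 endothelial markers was 1026 to 1411 CPM in control and 933 to 1049 CPM in cKO neurons, 9.49 and 8.44 times the naive sum, with 6 of 6 called higher, and that of 8 Schwann cell markers 0.211 and 0.21 times. None of the 6 endothelial or 10 neuronal markers was at 0. The part of other cells in the culture values was not tested. In the list of growth cone genes Tnfrsf12a (4.89) was among those higher in control culture and Tubb3, the neuronal tubulin (-1.39), and Nrn1 (-1.65) among those lower. Of 20 growth cone genes 9 were higher and 8 lower than in naive control ganglia (median 0.05), of 12 partners of Flrt3 4 and 6 (median -0.31), of 11 partners of Cd44 9 and 2, and of 10 tested plasminogen genes 8 and 2, where 40% of all genes were higher. Against opposite-side sham control ganglia these counts were, in the same order, 6 and 12 (median -0.50), 4 and 6 (median -0.27), 9 and 1, and 6 and 2, where 34.1% of all genes were higher.

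The genotype comparisons ask whether these genes differ between cKO and control before injury, after crush, after sham surgery or in culture. No member was called in edgeR's test in any of them, and the number of calls over all genes was 2 or fewer in each. The share of genes called was 0.00941% in naive and 0.00941% in crushed ganglia, 0% for the interaction of genotype with crush, 0% in neurons, 0.00451% on the sham-operated side, 0% on the opposite side and 0% for the interaction of genotype with side. At an unadjusted p under 0.05 there were 1 member (of 1232 genes) in naive ganglia, 0 (of 579) in crushed, 2 (of 627) for the crush interaction, 1 (of 1863) in neurons, 1 (of 1682) on the operated side, 0 (of 1160) on the opposite side and 0 (of 904) for the side interaction. DESeq2 called no member except 1 in neurons, Gap43.

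After crush the members lay close together in both genotypes. The log2 difference of cKO from control was between -0.10 and 0.19 over the 8 genes, and in none were the groups without overlap, where 8.73% of all genes were. For the least variable ones the intervals were narrow: -0.15 to 0.14 for Gap43, -0.22 to 0.03 for Basp1 and -0.23 to 0.07 for Cd44. For Flrt3 it was -0.29 to 0.23, for Plaur -0.42 to 0.28 and for Gpr151 -0.44 to 0.42. The intervals of Sprr1a (-0.62 to 0.48) and Ecel1 (-0.56 to 0.94) were the widest of those named here and allow larger differences. For the interaction of genotype with crush, an unadjusted p under 0.05 was found for Basp1 (log2 difference -0.21 ± 0.09, unadjusted p = 0.0413) and Cd44 (-0.32 ± 0.11, unadjusted p = 0.0135), and both had an adjusted p of 0.9999.

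In naive ganglia the Cd44 levels of 314, 285 and 282 CPM in cKO mice all lay above the control values, and those of Flrt3 did so by a small margin, 2 of 8 genes where 12.1% of all genes had groups without overlap. The Cd44 difference was 0.24 ± 0.08 (unadjusted p = 0.00962, adjusted p = 0.754). Over the 8 genes the naive differences ran from -0.43 to 0.24.

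In cultured neurons Gap43 was the gene with the clearest difference between genotypes. Its level was 105, 140.4 and 106 CPM in cKO and 68.1, 79.8 and 72.4 CPM in control neurons, with no overlap between the genotypes. The log2 difference was 0.67 ± 0.12 (95% interval 0.44 to 0.90, 1.59-fold), with an unadjusted p of 0.000415 and an adjusted p of 0.276, which misses the threshold. It was called by DESeq2 (adjusted p = 0.000225), in the fit of all 26 libraries (0.00214) and without the filter on low counts (0.0322), and not in the fit with the replicate number as a block (0.0863) or when any 1 library was left out (0.0994 to 0.588). The summed neuronal markers of the cKO cultures were 1.09 times those of the controls, overlapping, and the median log2 difference of the 10 markers was 0.18 with none called; their part in the Gap43 difference was not tested.

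For Plaur the cKO neuron libraries also lay above the controls, with a log2 difference of 0.09 ± 0.06 (adjusted p = 0.68), so 2 of 8 genes had groups without overlap beside 14.7% of all genes. Ecel1 differed by -0.31 ± 0.19 and Sprr1a by -0.23 ± 0.22, neither of them called. The sum of 5 erythrocyte markers was 2.41 times and that of 6 neutrophil markers 2.38 times the control sum in cKO cultures, the neutrophil sums overlapping. That of 8 Schwann cell markers was 0.911 times the control sum, without overlap, and that of 6 endothelial markers 0.822 times, overlapping, with each of these 14 markers lower in cKO by its fitted difference and none called. The part of these cells in the values was not tested. On the sham-operated side the Gap43 difference of cKO from control was 0.25 ± 0.08 (adjusted p = 0.557), and after crush it had the interval around 0 given above. Whether the Gap43 difference was larger in neurons than in ganglia was not tested.

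The order of the 10 groups sorts the 8 genes into patterns. Plaur and Cd44 were highest in culture, then after crush. Ecel1 was highest in culture, and the sham-operated cKO group stood between the crushed groups by its mean. Sprr1a was also highest in culture by its means, but overlapped the crushed ganglia. For Flrt3 the control culture had the highest mean and the cKO culture a mean below both crushed groups, and neighbours among these 4 groups overlapped. Gpr151 was highest after crush by its means, and there too the neighbouring groups overlapped. Gap43 was highest after crush by its means, overlapping the sham-operated cKO group, and lowest in culture. Basp1 was highest on the sham-operated side of cKO mice and lowest in culture by its means, its control neurons overlapping naive ganglia. The crushed and sham-operated groups of Ecel1 overlapped. For Sprr1a, Flrt3, Gpr151 and Plaur the sham-operated groups had means between the crushed and the opposite-side groups. The opposite-side sham and naive groups were next to each other at the low end for Sprr1a, Ecel1 and Gpr151.

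To find the genes most like each member, the profile of log2 CPM group means was centred and compared by its root mean square (RMS) difference with 14618 candidates (14617 for Flrt3) over the 10 groups. Sprr1a was closest to the injury factor Atf3, at an RMS difference of 0.17 in log2 units where its own profile varied by 2.55 around its mean, and next to Tmem88b at 0.35. Flrt3 was closest to Sox11 (0.34) and the pseudogene Slfn10-ps (0.39), which may share reads with related Slfn genes. Gpr151 was closest to Tmem88b (0.42) and Sprr1a (0.54), Plaur to Chac1 (0.31) and Qrfpr (0.32), and Ecel1, with the widest profile (2.59), to Nags (0.48) and Krt16 (0.63). Atf3 and Sox11 are transcription factors of the injury response. The flatter profiles of Gap43 (0.61), Basp1 (0.39) and Cd44 (0.62) had smaller differences from their nearest genes: Serpinb8 (0.12) and Cdhr1 (0.12) for Gap43, Tuba1a (0.09) and Calca (0.10) for Basp1, and Smad1 (0.09) and Gpr19 (0.10) for Cd44. Among the members themselves the closest pairs were Gap43 with Basp1 (0.35) and Sprr1a with Gpr151 (0.54). Group means over shared libraries are not independent points, and these distances are descriptions.

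**Figure D5:**
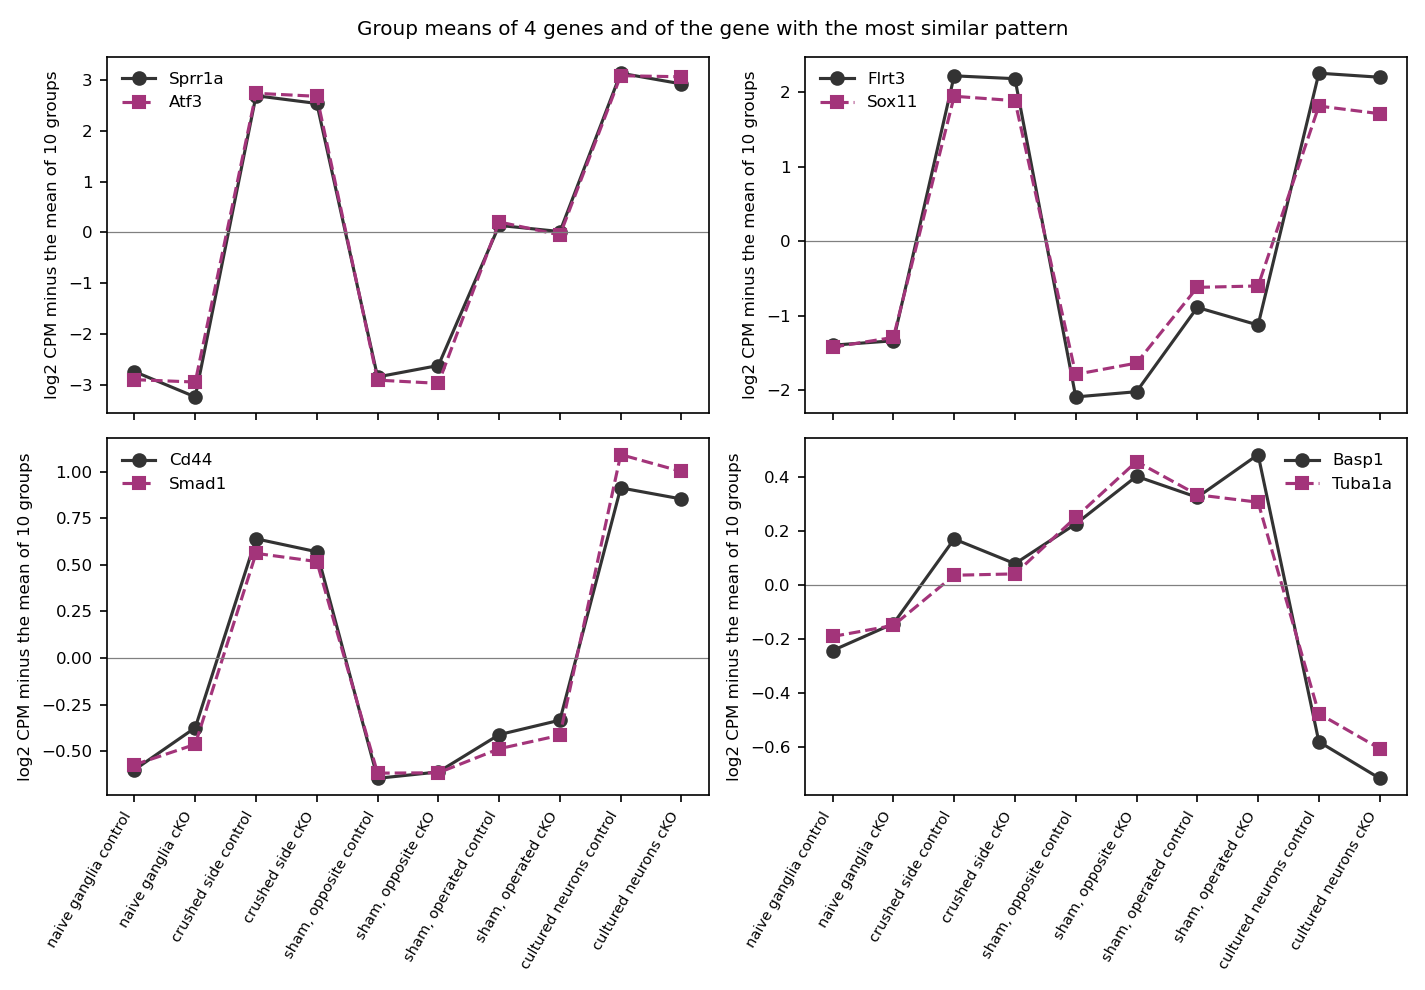
Centred log2 CPM group means of Sprr1a, Flrt3, Cd44 and Basp1 (solid, grey) and of the gene with the most similar profile for each (dashed, purple) over the 10 groups. The Sprr1a and Atf3 lines nearly coincide, with an RMS difference of 0.17, and the Basp1 and Tuba1a lines stay within a narrow band around 0.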

How the data were processed

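Messenger RNA was sequenced from 20 ganglion and 6 cultured neuron libraries (TruSeq Stranded mRNA and RNeasy Plus kits, per the labels' protocols). The submitters' processing notes name Trim Galore, HISAT2, featureCounts and mm10; versions are not given in the sources used here. The authors deposited raw counts per gene, used for every test, and FPKM values. In 99.27% of values the deposited FPKM equalled count over gene span (introns included) and total within 0.1%; FPKM was used for this check only. Columns left unmapped numbered 0.

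The members and lists were chosen with earlier results of these data known. Some listed genes are not reported here. Named genes are the 8 members, up to 3 called genes per direction of each list, Ahr and Thy1, genes overlapping a member and the 2 most similar profiles; the single cell type markers named fall outside this rule and were chosen after their values were seen. Counts were fitted with edgeR 4.0.16 (R 4.3.3): filterByExpr by group (minimum count 10, minimum total 15), TMM, 1 mean per group, glmQLFTest, two-sided, Benjamini-Hochberg adjustment. Naive and crush ganglia (12 libraries, 21261 genes), sham ganglia (8, 22160) and neurons (6, 23295) were fitted apart, and all 26 together (24101 genes) for comparisons across them. SE is the log2 fold change over the square root of F. The 95% intervals use it with the multiplier of a normal distribution, which makes them too short for so few libraries. Printed CPM use TMM factors over all 26 libraries. In total 15 comparisons were made. The fits were checked on simulated counts. DESeq2 1.42.0 was an alternative. Replicates differed beyond sampling noise (chi-square per degree of freedom 3.14 to 36.3). Sham sides are paired by mouse in the labels, which the main fits and the crush effect minus sham side effect did not use. Deviations of the sides correlated at 0.184 (control) and -0.121 (cKO). Counting error is smallest in the deepest libraries.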

Additional observations from a re-analysis of the deposited data

How the results depend on the processing

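Of 120 member fold changes, 53 were called, and 1812 values were recomputed under the alternatives: 1763 stayed on their side of the threshold, 17 lost and 32 gained the call, and 0 called ones changed sign (106 uncalled ones did). The cause of the changes was not tested.

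Members called between sham sides numbered 0 in the edgeR fit. They were 1 at an adjusted p of 0.1, 6 without the filter on low counts, 4 with DESeq2, 5 in the fit of all 26 libraries, 1 with the mouse as a replicate block, 2 with the block crossed between the cKO sides, 3 without both sides of cKO mouse 1, and 0 to 4 when 1 library was left out. In neurons, members called by genotype were 1 without the filter, with DESeq2 and with all 26 libraries, and 0 under the replicate block. For the crush effect minus the sham side effect, leaving out 1 library gave 4 to 6 members. With the replicate block 8 members were called after crush in control and 7 in cKO ganglia, Basp1 being lost (adjusted p = 0.0537). Replicate numbers did not pair the ganglia: correlations were -0.281 to 0.272 for the same number and -0.289 to 0.241 for different numbers. In neurons they were 0.065 to 0.223 for the same number and -0.154 to 0.010 for different ones. Whether the neuron libraries of 1 number share a batch was not tested.

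Numbers of genes called moved more. Crush in cKO gave 3962 genes, 1414 with sex as a covariate and 2400 without the 2 libraries against their labelled sex. The sham side gave 1 gene, 381 without the filter, 200 with DESeq2 and 148 in all 26 libraries. In neurons the genotype gave 0 genes, 163 with DESeq2, 77 in all 26 libraries, 27 without the filter and 15 without control replicate 1. On the sham-operated side it gave 1 gene, 626 without the filter, 153 with DESeq2, and 98 and 30 without cKO replicates 1 and 2; on the opposite side 0, 59 without the filter and 31 with DESeq2. In crushed ganglia it gave 2 genes, and 0 to 15 over the alternatives, 15 without cKO replicate 1. The interaction with crush gave 0, and 8 without that library. The interaction with side gave 0, 144 without the filter and 12 with DESeq2.

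Requiring 10 counts in every library left 6 members testable after crush and in culture, Sprr1a and Ecel1 dropping out.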

Other observations

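Genes that act beside the members gave values not described above. After crush, the transcription factor Sox11 rose by 3.37 ± 0.14 in control and 3.17 ± 0.14 in cKO ganglia on the log2 scale, and the stress gene Gadd45a by 3.24 ± 0.13 and 3.26 ± 0.13 (edgeR quasi-likelihood test, called in both). In control culture the cytokine gene Il6 was 7.74 ± 0.34 above naive ganglia. Vtn, which encodes the matrix protein vitronectin, was at -4.39 ± 0.70 and Hmmr, a second hyaluronan receptor, at -1.83 ± 0.31. Cd44 and Hmmr, both receptors of hyaluronan, thus differed from naive ganglia in opposite directions in culture. The cultures also differed from ganglia in their make-up, and its part in these values was not tested.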
